A study of Arabidopsis thaliana with 2 samples.

Results

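The 44 Arabidopsis thaliana genes for linker histone H1, core histones H2A, H2B, H3 and H4 and the centromeric variant CENH3 were followed in nucleosome-protected DNA of leaves. Each gene was assigned to the 10-kb bin that holds its midpoint, and each bin was taken once, which gave 41 bins of 11916 nuclear bins. The set had 13 H2A, 11 H2B, 8 H3, 8 H4 and 3 H1 genes and 1 CENH3 gene. Chromatin was digested with micrococcal nuclease (MNase), which degrades linker DNA faster than DNA wrapped on a histone octamer, and the surviving DNA was sequenced. The study holds 1 library of the chr5 mutant and 1 library of the wild type, both from untreated leaves of plants grown on plates at 22 °C. The labels give neither the chr5 allele, the background accession of the plants nor their age.

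A nucleosome is an octamer of H2A, H2B, H3 and H4 with DNA wrapped around it, and H1 binds where the DNA enters and leaves. Canonical core histones are made mostly when DNA is replicated, whereas variants such as H3.3 and H2A.Z are placed on chromatin outside replication as well. Plant genomes carry several near-identical gene copies for each canonical histone, mostly dispersed and not in the tandem arrays known from some animals. CHR5 encodes a SNF2-family remodelling ATPase of the CHD1 type, a kind of enzyme that slides and spaces nucleosomes, and the comparison asks how protected DNA is distributed when it is mutated.

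The chr5 library held 102412872 nuclear counts and the wild-type library 99392770, and counts were scaled to these totals. At the CHR5 gene itself (AT2G13370, 2 bins on chromosome 2, 5540001 to 5560000) the chr5 library had 15636 counts and the wild type 15526, a fold of 0.977 (exact 95% interval 0.956 to 0.999). A 10-kb bin cannot check a point mutation or an insertion, so this value says nothing about the label. With 1 library a genotype there was no replicate check and no test between genotypes. All intervals reflect counting error alone and would be too narrow if PCR copies of molecules were kept. Leaves hold several cell types, so a change in the makeup of cells and a change of protection within cells cannot be told apart, and counts of genomic DNA cannot check the labelled tissue.

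All 41 histone bins lay in chromosome arms, none had 0 counts in either library, and all passed the filter on low counts. A bin is much longer than a histone gene. The members took 4.28% to 33.7% of their bin, with a median of 9.38%, beside 1 to 5 other protein-coding genes. A value therefore describes a stretch of chromatin around the gene. Of the 44 genes, 6 reached into a second bin. Reads from near-identical coding sequences could be split between copies or left out in the authors' counting, whose rule is not given in the sources used here.

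At the median, a histone bin had 7966 counts in chr5 and 7537 in the wild type, which is 77.8 CPM in chr5 and 75.8 CPM in the wild type (counts per 1000000 nuclear counts). The 10333 analysed bins that hold the midpoint of a protein-coding gene had a wild-type median of 7853 counts, or 79.0 CPM. Of the 41 histone bins, 24 were below that median and 17 were not, which is near an even split. Counts in gene-bearing bins went with how much of the bin was gene, with a Spearman's rho between protein-coding coverage and wild-type count of 0.65 over the 41 histone bins and 0.60 over the 10333 coding bins. These are descriptions across bins of 1 library, and bins are not replicates. Histone bins were not poor in genes, with a median coverage of 71.9% against 65.4% for all coding bins.

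Within each of 3 ranges of coverage, set after seeing the data, the histone bins had a lower median than all coding bins, a difference that was not tested. Where under 50% of the bin was protein-coding, 7 histone bins had a wild-type median of 48.8 CPM, against 60.3 over 3133 coding bins. From 50% to 75% the median was 70.1 over 14 histone bins, against 75.2 over 3607 coding bins. From 75% upward it was 82.0 over 20 histone bins, against 95.6 over 3593 coding bins. In all, 31 of the 41 histone bins lay below the median of the coding bins in their range, which by its definition splits those bins evenly. The coding bins were not limited to arms, where all histone bins lie and where 9550 of the 10333 coding bins lie. Without a split by coverage, the wild-type median was 79.0 CPM in the coding bins of arms and also in all coding bins. Medians for arms alone within each range of coverage are not given here. Bins within 2 Mb of a centromere, with or without genes, had a wild-type median of 95.8 CPM. GC content and the share of uniquely mapping bases were not compared, for want of a genome sequence, and their part in this was not tested.

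**Figure D1:**
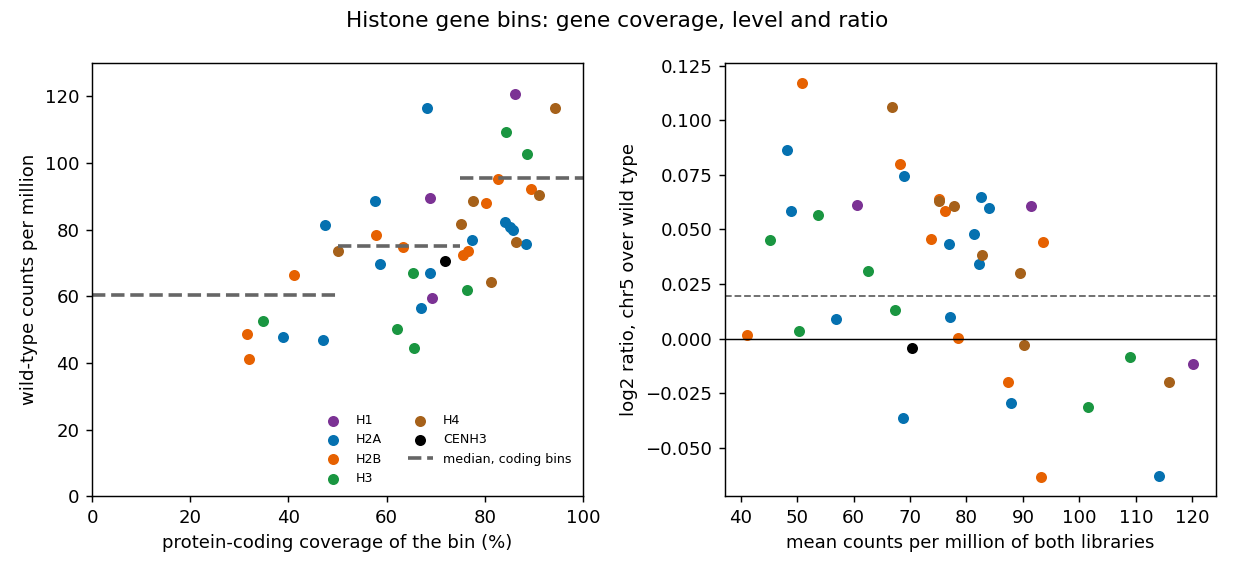
Left, wild-type CPM (counts per 1000000 nuclear counts) against the protein-coding coverage (%) of each of the 41 histone gene bins, coloured by class, with dashed lines at the median of all coding bins in 3 ranges of coverage; 31 of 41 points lie below their line. Right, the log2 ratio of chr5 over wild type against the mean CPM of both libraries, with the dashed line at the median of coding bins (0.019); histone bins with more counts tend to lie lower. The 2 bins with genes of 2 classes have the colour of H2A (with H2B) and of H2B (with H4).

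The classes overlapped widely in their counts, and H3 had the lowest median. The H1 bins had medians of 93.3 CPM in chr5 and 89.5 in the wild type, from 3 bins. H4 bins followed with 81.6 in chr5 and 78.9 in the wild type. H2A bins were at 78.2 in chr5 and 76.8 in the wild type, and H2B bins at 76.8 in chr5 and 73.5 in the wild type. The single CENH3 bin was at 70.3 in chr5 and 70.5 in the wild type. H3 bins had medians of 63.2 in chr5 and 61.8 in the wild type. The wild-type median of H3 lay inside the range of each of the other classes with more than 1 bin, and differences between classes were not tested. The order of the class medians depended on the width of the window. Over 3 bins around each midpoint the H3 median was 71.5 CPM and the H2A median 68.3, which was then the lowest.

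**Figure D2:**
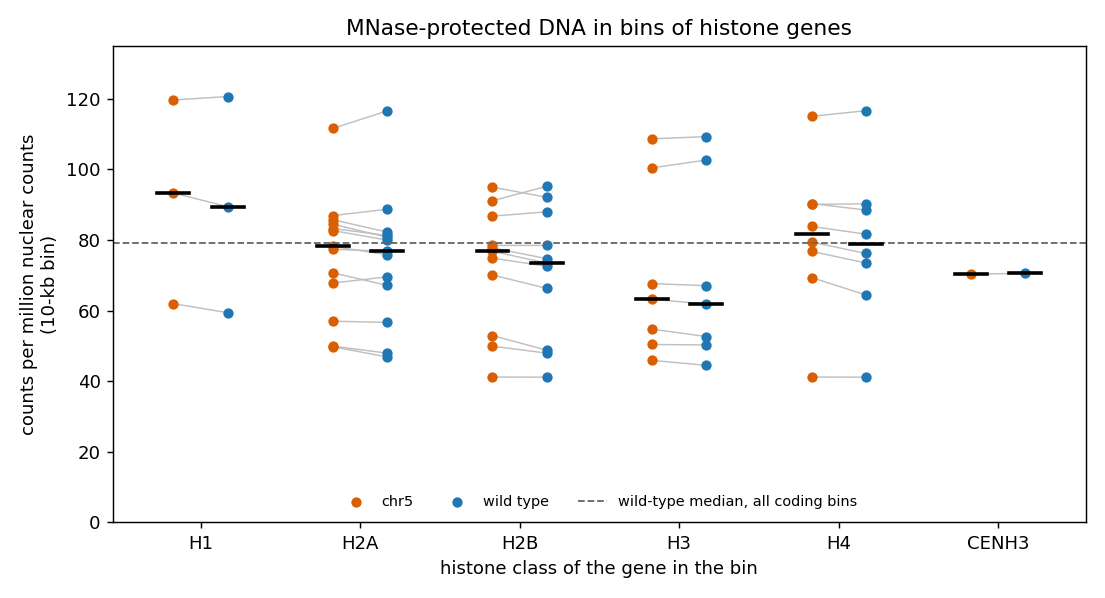
CPM (counts per 1000000 nuclear counts) in each histone gene bin, chr5 (orange, left) and wild type (blue, right) joined by a line, by histone class; black bars are class medians and the dashed line is the wild-type median of all coding bins (79.0). The 2 bins with genes of 2 classes are drawn in both classes; the genotypes are close in every bin and the classes overlap.

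The ratio of chr5 to wild type in histone bins was close to that of other gene bins. Their median log2 ratio was 0.038, a fold of 1.027, with an interquartile range of -0.0028 to 0.061, against a median of 0.019 and a range of -0.011 to 0.049 over all coding bins and a median of 0.015 over all 11735 analysed bins. Above the median of all analysed bins were 24 of the 41, or 58.5%, against 54.5% of coding bins and 56.5% of coding bins in arms. Past a 5% change (higher by 5%, or lower by the inverse of that fold), 5 histone bins were higher in chr5 and 0 were lower in chr5. Over all analysed bins 12.1% were higher and 9.29% were lower, and over coding bins 12.9% were higher and 4.47% were lower. The 5 of 41 are 12.2%, so the share past the threshold in the higher direction was that of the background. When the median bin was set to 0, 3 histone bins were higher and 2 were lower. The shares above belong to scaling by totals, and those at this other scaling are not given here. No histone bin passed a 10% change, a threshold that 3.46% of analysed bins passed in either direction.

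The exact 95% interval of the fold lay above 1 in 17 histone bins (41.5%) and below 1 in 2 (4.88%), against 26.8% and 10.2% of coding bins. With the median bin set to 0, it lay above 1 in 11 histone bins (26.8%) and below 1 in 5 (12.2%), against 16.3% and 15.4% of coding bins. That scaling was planned, but counting intervals under it was added after seeing the data. Taking the same value off every bin changes such counts by construction, in histone bins and in coding bins. At both scalings a larger share of histone bins than of coding bins lay above 1, and a smaller share below 1. These differences were not tested. A single fold had an interval of about 3.16% of its value to either side. The summed counts of all 41 bins were 324787 in chr5 and 310138 in the wild type, a fold of 1.016 (1.011 to 1.021), and those of all coding bins gave 1.008 (1.008 to 1.009). These narrow intervals count reads and hold no spread between plants or preparations. Of the 41 histone bins, 40 lay within the central 95% of all analysed bins, which spanned folds of 0.907 to 1.08. That background includes 1882 bins within 2 Mb of a centromere, with a median log2 ratio of -0.054 and an SD of 0.084. No histone bin lay there. The 9509 coding bins in arms without a histone gene had a median of 0.021 and an SD of 0.048, against an SD of 0.043 for the histone bins.

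**Figure D3:**
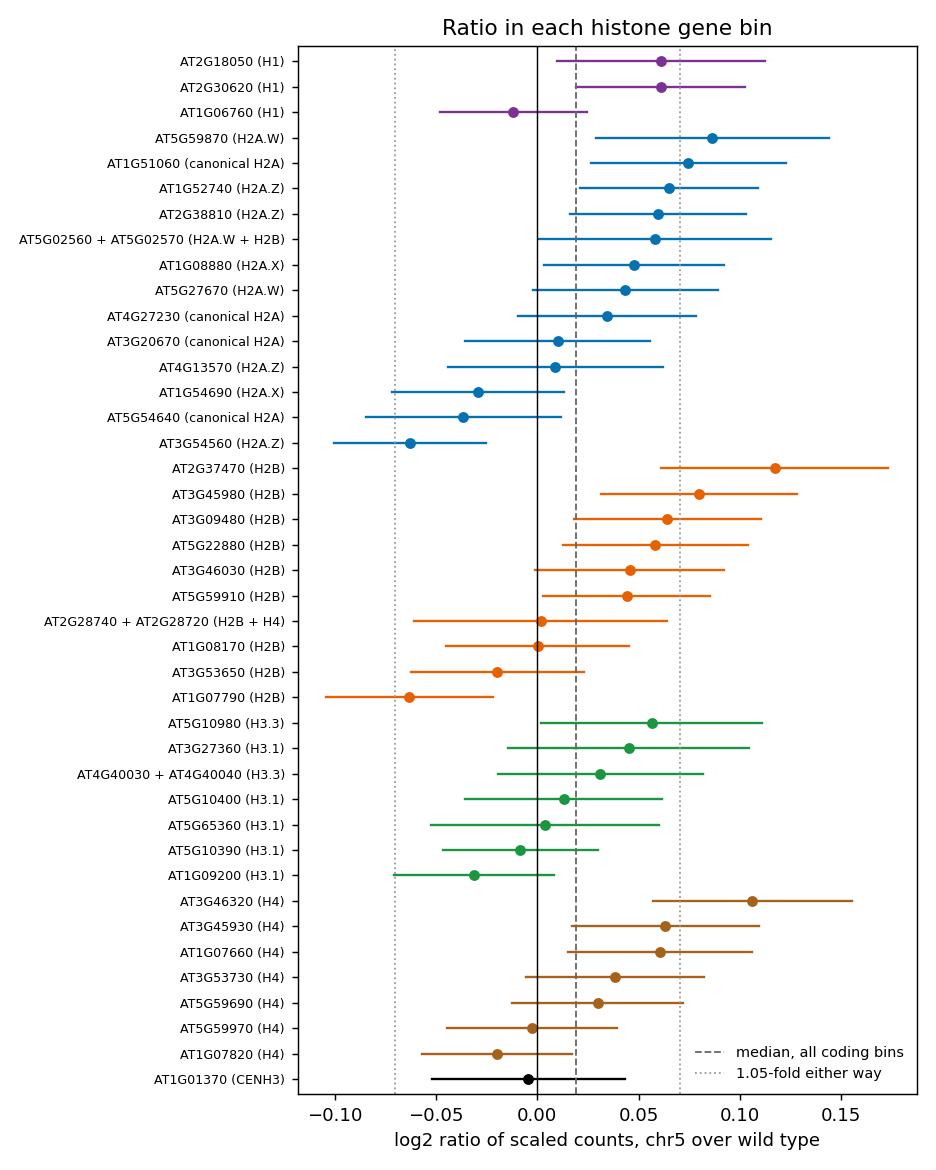
Log2 ratio of scaled counts, chr5 over wild type, for each of the 41 histone gene bins (points) with its exact 95% counting interval (lines), grouped by class and sorted within it. The 5 points beyond the right dotted line passed the 5% threshold, none lies beyond the left one, and the dashed line is the median of coding bins (0.019).

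The medians of the classes with more than 1 bin spanned 0.048 on the log2 scale. A typical counting interval was 0.046 to either side for 1 bin, which is not the error of a class median. For the summed counts of these classes it was 0.013 (H2A) to 0.024 (H1) to either side. H1 was highest at 0.061, H2B was at 0.046, H2A at 0.044, H4 at 0.034 and H3 lowest at 0.013. The SD over bins within a class was 0.031 for H3, 0.042 for H4 and for H1, 0.047 for H2A and 0.051 for H2B, and differences between classes were not tested. Summed counts gave folds of 1.022 for H4, with an interval of 1.011 to 1.033, 1.021 for H2B (1.011 to 1.031) and 1.020 for H1 (1.003 to 1.037). H2A was at 1.015 (1.006 to 1.024) and H3 at 1.006 (0.993 to 1.018). On that measure H4 was highest and H3 was again the lowest class with more than 1 bin.

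Linker histone H1 helps to compact chromatin. The gene AT2G30620 had 9556 counts in chr5 and 8891 in the wild type in its bin (chromosome 2, 13040001 to 13050000), a fold of 1.043 (1.013 to 1.074). The bin of HIS1-3 (AT2G18050), the drought-induced H1 variant gene, had 6345 counts in chr5 and 5903 in the wild type, a fold of 1.043 (1.007 to 1.081). Both were at a log2 ratio of 0.061. The bin of AT1G06760, the other main H1 gene, had 12257 counts in chr5 and 11993 in the wild type, a fold of 0.992 (0.967 to 1.017). It had the most wild-type counts of all 41 histone bins. The interval thus lay above 1 in 2 of the 3 H1 bins, against 26.8% of coding bins. With the median bin set to 0, it lay above 1 in 1 of the 3 H1 bins, against 16.3% of coding bins.

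H2A genes include the canonical form and the variants H2A.X, H2A.W and H2A.Z. The 4 canonical bins had a median log2 ratio of 0.022 and ran from -0.037 to 0.074. The highest was HTA10 (AT1G51060), with 7239 counts in chr5 and 6672 in the wild type, a fold of 1.053 (1.018 to 1.089), which passed the 5% threshold. The lowest was RAT5 (AT5G54640), named for the resistance of its mutant to Agrobacterium transformation, with 6945 counts in chr5 and 6913 in the wild type, a fold of 0.975 (0.943 to 1.008). HTA2 (AT4G27230) was at 1.024 and HTA13 (AT3G20670) at 1.007, both with intervals that spanned 1. The canonical bins thus fell on both sides of the coding median.

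H2A.X is phosphorylated at DNA breaks and H2A.W marks heterochromatin in plants. Of the 2 H2A.X bins, H2AXA (AT1G08880) had 8466 counts in chr5 and 7949 in the wild type, a fold of 1.034 (1.002 to 1.066). GAMMA-H2AX (AT1G54690) had 8902 counts in chr5 and 8817 in the wild type, a fold of 0.980 (0.951 to 1.009). The interval of GAMMA-H2AX spanned 1 and overlapped that of H2AXA. All 3 H2A.W bins were above the coding median. HTA6 (AT5G59870) had 5094 counts in chr5 and 4656 in the wild type, a fold of 1.062 (1.020 to 1.105), and passed the threshold. The bin that holds both HTA12 (AT5G02560) and the H2B gene AT5G02570 had 5111 counts in chr5 and 4764 in the wild type, a fold of 1.041 (1.001 to 1.083). HTA7 (AT5G27670) had 8004 counts in chr5 and 7537 in the wild type, a fold of 1.031 (0.999 to 1.064). The summed fold of the 3 bins was 1.042 (1.021 to 1.064). Of these bins, those of HTA6 and HTA12 had low counts and under 50% protein-coding coverage (47.1% and 38.9%).

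H2A.Z is exchanged into nucleosomes near gene starts by the SWR1 complex. The bin of HTA11 (AT3G54560) had 11431 counts in chr5 and 11589 in the wild type, a fold of 0.957 (0.933 to 0.982), the lowest of all H2A bins and the one with the most wild-type counts. HTA9 (AT1G52740) was higher in chr5, with 8652 counts in chr5 and 8027 in the wild type, a fold of 1.046 (1.015 to 1.078), just inside the threshold. HTA8 (AT2G38810) was at 1.042 (1.011 to 1.074) by its midpoint bin, but 45.7% of the gene lies in the bin before it, which was at 0.992 (0.963 to 1.022), and both bins together were at 1.016 (0.995 to 1.038). HTA4 (AT4G13570), grouped here with H2A.Z, had 5836 counts in chr5 and 5629 in the wild type, a fold of 1.006 (0.970 to 1.044). The H2A.Z bins thus did not share a direction, and their summed fold was 1.008 (0.993 to 1.023).

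H2B genes held both the highest and the lowest ratio of all histone bins. The highest was AT2G37470 (chromosome 2, 15730001 to 15740000), with 5418 counts in chr5 and 4848 in the wild type, a fold of 1.085 (1.043 to 1.128). It was the histone bin that lay outside the central 95% of all bins, at percentile 98.0 of their log2 ratios. This bin had 31.6% protein-coding coverage, and its neighbours were at log2 ratios of -0.023 and 0.019. The lowest was HTB1 (AT1G07790, chromosome 1, 2410001 to 2420000), with 9333 counts in chr5 and 9463 in the wild type, a fold of 0.957 (0.930 to 0.985). It also had the most wild-type counts of the H2B bins, and its ratio was nearly that of HTA11.

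Among the other H2B bins, HTB9 (AT3G45980) passed the threshold, with 7176 counts in chr5 and 6589 in the wild type and a fold of 1.057 (1.022 to 1.093). AT3G09480 was at 1.045 (1.013 to 1.079), HTB2 (AT5G22880) at 1.041 (1.009 to 1.075), HTB11 (AT3G46030) at 1.032 (0.999 to 1.066) and HTB4 (AT5G59910) at 1.031 (1.002 to 1.061). AT3G53650 was at 0.986 (0.958 to 1.016), but 26.3% of the gene lies in the next bin, and both bins together were at 1.007 (0.987 to 1.028). The bin of AT1G08170, which encodes an H2B variant of seeds and sperm, had 8036 counts in chr5 and 7798 in the wild type, or 78.5 CPM in both libraries, with a 95% interval of the fold from 0.969 to 1.032. The 11 H2B bins ranged from 4086 to 9463 wild-type counts. The lowest count was in the bin of AT2G28720, which also holds the H4 gene HIS4 (AT2G28740), with 4215 counts in chr5 and 4086 in the wild type and a fold of 1.001 (0.959 to 1.045). Only 4.38% of analysed bins had fewer wild-type counts, and its protein-coding coverage was 32.0%.

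The 5 bins of H3.1, the replication-coupled form, were close to 1 in their ratio, while the median coding bin was at a fold of 1.013. Of the 5, 1 was above the median of all analysed bins, against 54.5% of coding bins. Less the running median, 0 of the 5 were above 0, against 48.4% of coding bins, and their median was -0.021. The bin of AT3G27360 was at 0 on that measure and so not below its surroundings. Above 0 were 3 of 3 H2A.W, 2 of 2 H3.3, 2 of 4 canonical H2A, 2 of 4 H2A.Z and 1 of 2 H2A.X bins. These subclasses have few bins, and differences between them were not tested. AT1G09200 had 10287 counts in chr5 and 10203 in the wild type, a fold of 0.979 (0.952 to 1.006), the lowest among H3 bins. The neighbouring genes AT5G10390 and AT5G10400 lay in adjacent bins on chromosome 5 (3260001 to 3280000), with 11129 and 6928 counts in chr5 and 10864 and 6663 in the wild type, at folds of 0.994 (0.968 to 1.021) and 1.009 (0.976 to 1.044). AT5G65360 had 5160 counts in chr5 and 4995 in the wild type, a fold of 1.003 (0.964 to 1.043). AT3G27360 had the fewest counts among H3 bins, 4699 in chr5 and 4420 in the wild type, and a fold of 1.032 (0.990 to 1.075). Each of the 5 intervals spanned 1, and the summed fold was 0.998 (0.984 to 1.013).

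The 3 genes of H3.3, the form placed outside replication at transcribed genes, occupied 2 bins. AT4G40030 and AT4G40040 share a bin, of which they make up 33.7%, with 6472 counts in chr5 and 6147 in the wild type and a fold of 1.022 (0.987 to 1.058). AT5G10980 had 5605 counts in chr5 and 5231 in the wild type, a fold of 1.040 (1.001 to 1.080), the highest among H3 bins. The summed fold of H3.3 was 1.030 (1.004 to 1.057). Its interval overlaps that of H3.1, and the difference between the 2 kinds of H3 gene was not tested. CENH3 (HTR12, AT1G01370), which replaces H3 at centromeres, has its gene on the arm of chromosome 1. Its bin had 7203 counts in chr5 and 7012 in the wild type, a fold of 0.997 (0.965 to 1.030), an interval that spanned 1.

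H4 bins ranged from a log2 ratio of -0.020 to 0.11. The highest was AT3G46320 (chromosome 3, 17020001 to 17030000), with 7103 counts in chr5 and 6404 in the wild type, a fold of 1.076 (1.041 to 1.114). The bin holds 66.5% of the gene, and the bin with the other 33.5% was lower in chr5, with 7535 counts in chr5 and 7564 in the wild type, at a fold of 0.967 (0.936 to 0.998). Both bins together were at 1.017 (0.994 to 1.041), so the place of this gene among the 5 past the threshold depended on which bin it was assigned to. AT3G45930 and AT1G07660 were at 1.045 (1.012 to 1.079) and 1.043 (1.011 to 1.076), with 7863 and 8136 counts in chr5 and 7304 and 7571 in the wild type.

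The lowest H4 bin was AT1G07820, which had the most wild-type counts of its class, with 11782 counts in chr5 and 11593 in the wild type and a fold of 0.986 (0.961 to 1.012). AT5G59970 was at 0.998, AT5G59690 at 1.021 and AT3G53730 at 1.027, each with an interval that spanned 1. Near-identical copies of the H4 gene thus lay in bins that differed in level from 41.1 to 117 wild-type CPM.

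All H2B genes, the seed and sperm variant gene AT1G08170 among them, were counted with the canonical core histone genes. The 26 bins of these genes (H3.1, H4, canonical H2A and H2B) had a median log2 ratio of 0.032 and the 11 bins of variant genes (H3.3, CENH3, H2A.X, H2A.W and H2A.Z) one of 0.044, a difference of -0.011. The SD over bins was 0.045 in both. Their wild-type medians were 75.4 and 75.8 CPM, a difference of -0.39. Without AT1G08170 the differences were -0.0092 on the log2 scale and -1.13 CPM. The difference between the kinds was not tested. The bin of HTA12 and AT5G02570 holds both kinds and was left out here.

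Histone genes that lie near each other did not always share a ratio. On chromosome 1 (2360001 to 2430000), the bin of AT1G07660 was at 0.061 on the log2 scale, that of HTB1 at -0.063 and that of AT1G07820, next to HTB1, at -0.020. On chromosome 3 (16880001 to 16920000), the 3 bins of AT3G45930, HTB9 and HTB11 were at 0.046 to 0.080. On chromosome 5 (24050001 to 24150000), the bins of AT5G59690, HTA6, HTB4 and AT5G59970 were at -0.0028 to 0.086. Over the 41 histone bins, Spearman's rho between the log2 ratio of a bin and the mean of its 2 neighbours was -0.0073, against 0.25 over 10331 coding bins. A rho over 41 bins is imprecise, these bins include 4 adjacent pairs, and the difference was not tested.

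The median log2 ratio was 0.038 in the histone bins, 0.024 in the bins 10 kb before them and 0.037 in those 10 kb after, by coordinate, against 0.015 over all analysed bins. The bins 10 kb after were thus nearly as high as the histone bins themselves. At 20 kb it was 0.021 before and 0.013 after. In the bins furthest out, 10 bins away, the median was 0.013 before and 0.033 after, so similar heights also occurred far from the histone bins. The interquartile ranges of all these overlap. With the running median of the 21 bins around it taken off, the median histone bin was at 0.011, and 22 of 41 bins were above 0.

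**Figure D4:**
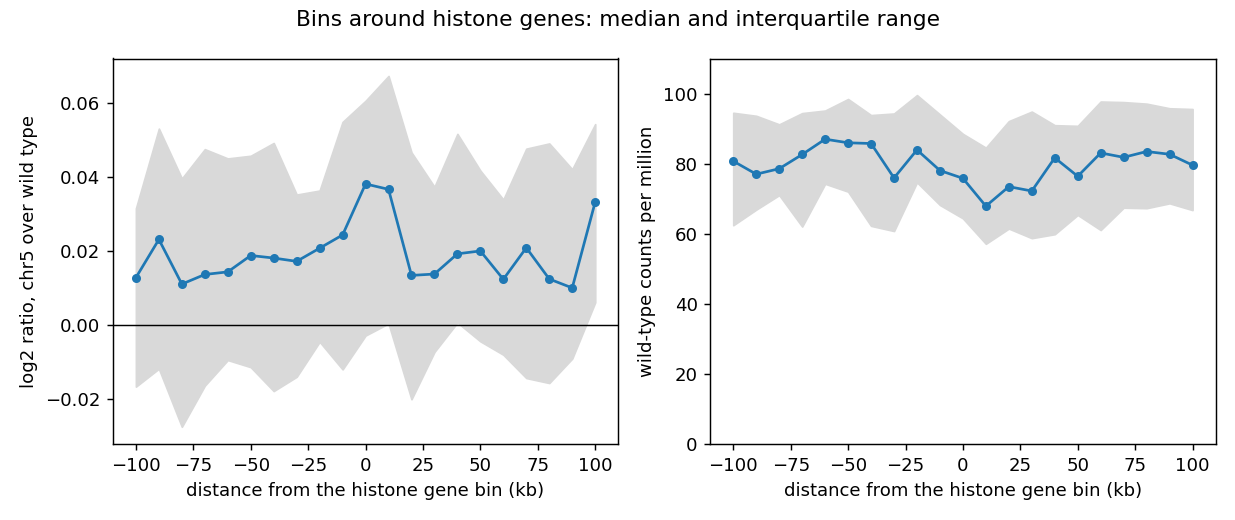
Median (points and line) and interquartile range (grey) of the log2 ratio of chr5 over wild type (left) and of wild-type CPM (right) by distance in kb from the histone gene bin, with other histone gene bins left out at distances other than 0. The log2 ratio is 0.038 at 0 kb, 0.037 at 10 kb and 0.033 in the bins furthest after, and the ranges overlap at all distances.

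The histone bins with few counts had higher ratios, as did bins elsewhere. Spearman's rho between the mean scaled count and the log2 ratio was -0.47 over the 41 histone bins and -0.39 over the 10333 coding bins. With coding bins split into 3 equal groups by mean count, the lowest group held 15 histone bins with a median log2 ratio of 0.056, against 0.042 for the coding bins. In the middle group 17 histone bins were at 0.044, against 0.020. In the highest group 9 histone bins were at -0.012, against 0.0012. All 5 bins past the 5% threshold had wild-type counts below the median of coding bins, as had 24 of all 41 histone bins. The wild-type count is the denominator of the ratio, so choosing bins by a high ratio favours low wild-type counts. The share among coding bins past the threshold is not given here, so this count has no background beside it. The part of depth in the ratios was not tested.

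The genes for histone chaperones and deposition factors, which hand histones to DNA, had ratios in the same range. Of 15 such bins, 1 was higher past the 5% threshold (6.67%) and 0 were lower. Over all analysed bins 12.1% were higher and 9.29% lower, and over coding bins 12.9% and 4.47%. The median log2 ratio of the 15 bins was 0.031, against 0.019 over coding bins. The highest was ASF1B, a chaperone gene for H3 with H4, with 5118 counts in chr5 and 4703 in the wild type and a fold of 1.056 (1.015 to 1.099). Next was NAP1;3, a chaperone gene for H2A with H2B, with 6832 counts in chr5 and 6318 in the wild type, a fold of 1.049 (1.014 to 1.086). The lowest were ATRX, a remodelling factor gene of H3.3 deposition, with 10734 counts in chr5 and 10798 in the wild type and a fold of 0.965 (0.939 to 0.991), and MSI1, a subunit gene of the chromatin assembly factor CAF-1, with 12091 counts in chr5 and 12130 in the wild type, a fold of 0.967 (0.943 to 0.992). The H3.3 chaperone gene HIRA was at 1.040 (1.008 to 1.072), and the CAF-1 genes FAS1 and FAS2 were at 1.004 (0.970 to 1.040) and 1.033 (1.003 to 1.063).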

How the data were processed

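MNase-seq counts of 1 chr5 and 1 wild-type leaf library were used. The authors deposited raw whole-number counts per 10-kb bin over 5 nuclear chromosomes and the organelles. BWA 0.7.5a and bedtools are named in the submitters' processing notes, whereas build, filters and the unit counted (reads or fragments) are not given there. Genes were placed with RefSeq's TAIR10.1 gene table, and no gene coordinates are printed. All 44 histone and 15 chaperone genes matched by locus. The placement was checked: in 10 chromosome segments, wild-type log2 count and protein-coding coverage, each less its running median of 21 bins, correlated at 0.18 to 0.72 with no shift and at most at 0.10 at shifts of up to 4 bins.

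Counts were scaled to the total over Chr1 to Chr5. The log2 ratio used a pseudocount of 1, while folds use counts alone with exact conditional binomial 95% intervals. A bin was analysed where its scaled count, averaged over both libraries, reached 0.25 times the median of nuclear bins, which left out 181 of 11916. The median analysed bin held 8296 counts in chr5 and 7978 in the wild type. A bin with genes of 2 classes counts once in each. Described in full were the extremes of each class in ratio and count, bins past a 5% change, bins with several members, H1 and CENH3, and the 2 highest and 2 lowest chaperone bins; the other members, HIRA, FAS1 and FAS2 were named in addition. The members, lists and thresholds were chosen with earlier results of these data known. Ranges of coverage and groups by count were set after seeing the data. The calculations were tested on simulated Poisson counts. Protein and promoter sequences were planned but not used here. The tools were Python 3.11.15, pandas 2.3.3 and numpy 2.4.6, with scipy 1.17.1 for intervals and correlations and matplotlib 3.10.9 for figures.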

Additional observations from a re-analysis of the deposited data

How the results depend on the processing

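The median log2 ratio of all histone bins, 0.038 as reported, ran from 0.011 (less the running median) to 0.038 across alternatives, that of H1 from 0.029 (summed counts) to 0.061, H2A from 0.016 to 0.044, H2B from 0.024 to 0.047, H4 from 0.014 to 0.038, H3 from -0.015 to 0.025 and CENH3 from -0.019 to 0.0097. A value was counted as moved when it left the counting interval of 1 bin at the median, about 0.046 to either side for a ratio, which is wider than most of these medians, so staying within it says little about stability. By that measure, or within 1.5 times a count, 126 values stayed and 18 moved. Summed counts, leaving AT1G08170 out of the canonical genes and intervals with the median bin set to 0 were added after seeing the data, and the last gave 11 bins above 1, against 17 as reported, and 5 below 1, against 2. The number of histone bins higher past a 5% change, 5 as reported, was 3 with the median bin set to 0, 2 less the running median, 1 over 3 bins around each midpoint and 0 at a 10% and at a 25% change. The number lower, 0 as reported, was 2 with the median bin set to 0 and 2 less the running median. The shares of all bins past 5% at these other settings are not given here, so those counts have no background beside them. A stricter threshold leaves fewer bins by its construction, and the cause of the other changes was not tested. Over 3 bins the wild-type medians in CPM were 86.0 for H1, 68.3 for H2A, 75.2 for H2B, 71.5 for H3, 76.6 for H4 and 83.6 for CENH3, and the difference of canonical minus variant was 5.03. The H2A median was 80.0 over all bins that a gene overlaps, and the H4 median was 81.7 without bins of several classes. The H3 ratio, at 0.013, was -0.0016 with the median bin set to 0 and -0.015 less the running median. No paired analysis was possible because each genotype has 1 library. Depth limits single folds to about 3.16% either way.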

Other observations

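The bin just before that of the H3.1 gene AT5G10390 (chromosome 5, 3250001 to 3260000) had 172987 counts in chr5 and 159815 in the wild type. It held 20.0 times the wild-type median and ranked 4 among all nuclear bins by wild-type count. Its fold was 1.0505 (1.043 to 1.058), while the 2 H3.1 bins after it were at 0.994 and 1.009. The gene table lists 5 protein-coding genes that reach into it (AT5G10330, AT5G10336, AT5G10340, AT5G10350 and AT5G10360, the last a gene for ribosomal protein S6). The bin was looked at because it borders a histone bin, after its value was seen, and the cause of its count was not tested.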
